A study of Mus musculus with 7 samples.

Results

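The simple epithelial keratins examined here are *Krt7*, *Krt8*, *Krt18*, *Krt19*, *Krt20* and *Krt23*. They were chosen by symbol, as the 6 rows with these names among the 38026 genes of the table. All 6 passed the filter on low values. They were compared between 4 sgScramble and 3 sgKrt19 tumors by bulk RNA-seq.

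Keratins are the intermediate filament proteins of epithelial cells. A keratin filament is built from heterodimers of 1 type I chain and 1 type II chain, so that chains of the 2 types are made together, and an unpaired chain is usually degraded. KRT8 (type II) and KRT18 (type I) form the primary pair of simple, single-layered epithelia such as those of pancreas, liver and intestine. KRT19 is the smallest type I keratin and marks the ductal cells of the pancreas, KRT7 is a type II keratin of ducts, KRT20 is a type I keratin of intestinal and gastric epithelium, and KRT23 is a less abundant type I keratin. KRT19 can dimerize with KRT8 as KRT18 does. The study is concerned with KRT19 as the keratin to which the chemokine CXCL12 is bound on the surface of carcinoma cells.

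Every tumor grew from the 1242 line, derived from a pancreatic ductal adenocarcinoma (PDA) of a KPC mouse. Such a mouse carries the allele LSL-Trp53 R172H/+ among others, and its transgene Pdx1-Cre, driven by the *Pdx1* promoter, acts in pancreatic epithelium. The cells had received a lentivirus encoding Cas9 and either a scrambled guide (sgScramble, tumors 1 to 4) or a guide that targets *Krt19* (sgKrt19, tumors 5, 6 and 8), and were then selected with puromycin. They were inoculated beneath the skin of C57BL/6 mice, which had been bought at 6 weeks of age and housed for 2 weeks, and the tumors were taken 2 weeks later without treatment. The sources do not say which guide against *Krt19* the sequenced cells carried, or whether they were a clone or a mixed population, so both groups may stand for 1 cell population each. The hosts kept their immune cells and stroma, and the whole tumor was sequenced. The values are normalized read counts, that is, reads per gene divided by a size factor for the library. The libraries held 40781199 to 44972100 reads. Errors after ± are SDs over the tumors of a group.

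The tumors differed in more than keratins, and sgScramble 3 stood apart from its group in skeletal muscle transcripts. All 10 muscle markers rose in sgKrt19 tumors, with a summed count of 106 to 2586 in sgScramble, the highest in sgScramble 3, and of 21231 to 30845 in sgKrt19. Of 10 leukocyte markers 8 rose, and their sum ran from 23562 to 33941 in sgScramble and from 34053 to 52609 in sgKrt19. Of 6 endothelial markers 4 rose, while none of 8 fibroblast markers and none of 5 tested adipocyte markers was called. Over all tested genes 17.9% were called higher and 16.0% lower. The part of these cell types in the keratin results was not tested.

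The genes of the type I members other than *Krt18* lie in the type I keratin cluster of chromosome 11, and *Krt18* lies beside the type II cluster of chromosome 15 (GRCm38). *Krt19* occupies chr11:100140810-100148665 on the minus strand. *Krt23* lies 648 kb and *Krt20* 703 kb from it, and 39.8 kb separate *Krt20* from *Krt23*. *Krt8* (chr15:101996698-102004482, minus strand) and *Krt18* (chr15:102028180-102032027, plus strand) are 23.7 kb apart and are read away from each other, and *Krt7* (chr15:101411043-101430313, plus strand) lies 566 kb from *Krt8*. Of the stretches of 76 bases, the read length, in the annotated exons of each gene, none of *Krt18*, *Krt19*, *Krt20* and *Krt23* recurs exactly in another annotated gene. For *Krt7* 0.0422% recur, and for *Krt8* 23.2%, of which most are in the processed pseudogene *Krt8-ps*. The level of *Krt8* is thus uncertain, by an amount that this share does not give.

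The promoters of the 3 members that rose together, *Krt8*, *Krt18* and *Krt20*, are shown so that their sequences can be compared. Each runs from 250 bases before to 50 bases after the RefSeq start of transcription (GRCm38.p6), on the strand of the gene. Capitals mark matches, on either strand, to TATAAA, to the AP-1 motif TGANTCA, to the Sp1 motif GGGCGG, to the CCAAT box or to the ETS motif GGAAGT.

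*Krt8* promoter, chr15:102004293-102004592, minus strand: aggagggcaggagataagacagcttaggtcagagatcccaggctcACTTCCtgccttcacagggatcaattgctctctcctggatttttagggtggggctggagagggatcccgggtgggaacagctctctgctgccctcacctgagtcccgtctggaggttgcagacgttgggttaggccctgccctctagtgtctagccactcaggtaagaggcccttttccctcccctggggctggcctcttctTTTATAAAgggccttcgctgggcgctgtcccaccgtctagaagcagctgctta

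*Krt18* promoter, chr15:102027966-102028265, plus strand: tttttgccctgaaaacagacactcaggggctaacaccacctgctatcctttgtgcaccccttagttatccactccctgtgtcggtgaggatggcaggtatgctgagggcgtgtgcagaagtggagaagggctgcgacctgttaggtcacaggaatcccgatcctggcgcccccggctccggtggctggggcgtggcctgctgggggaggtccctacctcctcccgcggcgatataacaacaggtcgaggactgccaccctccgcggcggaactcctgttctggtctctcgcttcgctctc

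*Krt20* promoter, chr11:99438104-99438403, minus strand: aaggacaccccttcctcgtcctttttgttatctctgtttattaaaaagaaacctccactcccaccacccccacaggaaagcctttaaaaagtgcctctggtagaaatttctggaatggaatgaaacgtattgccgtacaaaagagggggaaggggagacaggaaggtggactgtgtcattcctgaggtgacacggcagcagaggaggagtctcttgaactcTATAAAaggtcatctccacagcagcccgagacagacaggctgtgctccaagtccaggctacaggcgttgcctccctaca

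The letters TATAAA occur in the *Krt8* and *Krt20* windows and in 13.6% of 32851 mouse promoters of the same length. In *Krt20* they begin 29 bases before the start. In *Krt8* 2 overlapping matches on opposite strands, TTTATA and TATAAA, begin 3 bases and 1 base before it. GGAAGT, found in 23.8% of promoters, occurs in *Krt8* as its complement ACTTCC. The *Krt18* window held none of the 5 motifs, and no motif was present in all 3 windows. The AP-1 motif occurs in 7.81% of all promoters, the Sp1 motif in 35.7% and the CCAAT box in 37.4%, and none of them was in any of the 3 windows. A match is a run of letters and not a site of binding.

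*Krt19*, the targeted gene, was examined first as a check of the labels. Its normalized read count was 25574, 21179, 27618 and 17841 in sgScramble tumors 1 to 4 (mean 23053 ± 4392, SD, n = 4). It was 1606, 1960 and 2470 in sgKrt19 tumors 5, 6 and 8 (mean 2012 ± 434, SD, n = 3). Every sgKrt19 tumor lay below every sgScramble tumor, and 8.73% of the mean control level remained. limma gave a log2 fold change of −3.52 (SE 0.183, 95% confidence interval −3.93 to −3.11, adjusted p = 1.74e-05). By mean count *Krt19* ranked 203 among all 38026 genes of the table in sgScramble and 4625 in sgKrt19. In bulk tumors fewer cells of a type and less RNA per cell cannot be told apart, and the counts do not separate reads of edited *Krt19* from those of intact *Krt19*. Mesothelium is another tissue that makes *Krt19*. Of the 4 tested among 9 mesothelium markers 3 fell, with a summed count of 8764 to 11673 in sgScramble and of 6927 to 8256 in sgKrt19, nearly all of it *Msln*, which PDA cells also make. The others that fell had low counts. *Upk3b* went from 18.7 ± 5.70 to 0.385 ± 0.667 (log2 fold change −3.88, limma adjusted p = 0.00025). *Gpm6a* went from 35.4 ± 13.8 to 5.85 ± 3.65 (log2 fold change −2.51, limma adjusted p = 0.0029). *Wt1* was not called (log2 fold change −0.30). Among all tested genes 16.0% were called lower. *Calb2*, *Upk1b*, *Lrrn4* and *Muc16* were at or near 0 in all tumors, with at most 4 reads. The part of mesothelium in the fall of *Krt19* was not tested.

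Of the 6 keratins, 3 rose, 1 fell and 2 were not called by limma at an adjusted p under 0.05. Among all tested genes 34.0% were called, 17.9% higher and 16.0% lower in sgKrt19. Groups did not overlap for the same 4 members, 3 above and 1 below, against 41.1% of all tested genes, of which 21.7% lay above and 19.3% below. The median log2 fold change was 0.45 over the 6 members and 0.0072 over all tested genes.

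*Krt8* had normalized read counts of 58623, 51245, 65462 and 46646 in sgScramble tumors (mean 55494 ± 8276) and of 95718, 101544 and 112985 in sgKrt19 tumors (mean 103416 ± 8784). The groups did not overlap, and the mean was 1.86-fold higher in sgKrt19. This was a log2 fold change of 0.91 (SE 0.174, 95% confidence interval 0.52 to 1.29, limma adjusted p = 0.00359). *Krt8-ps*, the pseudogene with which *Krt8* shares sequence, went from 5032 ± 513 to 8396 ± 1523 and was also called higher (log2 fold change 0.73, adjusted p = 0.00443). How reads that match both were counted is not given in the sources used here.

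*Krt18*, the type I partner of *Krt8*, had counts of 57017, 44280, 56453 and 39289 in sgScramble tumors (mean 49260 ± 8872) and of 95350, 93269 and 98149 in sgKrt19 tumors (mean 95589 ± 2449). The 3 sgKrt19 tumors lay within a narrow range, wholly above the controls, and their mean was 1.94-fold that of controls, a log2 fold change of 0.97 (SE 0.178, 95% confidence interval 0.58 to 1.37, limma adjusted p = 0.0028).

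*Krt20* had counts of 7794, 8016, 7438 and 5790 in sgScramble tumors (mean 7260 ± 1008) and of 13309, 11934 and 14120 in sgKrt19 tumors (mean 13121 ± 1105). The groups again did not overlap, with a 1.81-fold higher mean in sgKrt19. The log2 fold change was 0.86 (SE 0.137, 95% confidence interval 0.56 to 1.17, limma adjusted p = 0.00133). The confidence intervals of *Krt8*, *Krt18* and *Krt20* overlapped broadly, and no difference between these 3 changes was tested.

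*Krt7* had counts of 10462, 3958, 9181 and 3793 in sgScramble tumors (mean 6848 ± 3473) and of 3552, 5438 and 1428 in sgKrt19 tumors (mean 3473 ± 2006). It was high in sgScramble 1 and 3, low in sgScramble 2 and 4 and lowest in sgKrt19 8, and the groups overlapped. Its coefficient of variation was 50.7% in sgScramble and 57.8% in sgKrt19, where that of the other 5 members did not exceed 21.6%. The log2 fold change of −1.03 was not called (SE 0.472, 95% confidence interval −2.08 to 0.02, limma adjusted p = 0.115). It was −0.49 without sgKrt19 8 (adjusted p = 0.404).

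*Krt23* had counts of 1220, 993, 1143 and 852 in sgScramble tumors (mean 1052 ± 163) and of 1074, 1133 and 999 in sgKrt19 tumors (mean 1069 ± 67.4). All 3 sgKrt19 values lay inside the range of the controls. The log2 fold change was 0.034 (SE 0.137, 95% confidence interval −0.27 to 0.34, limma adjusted p = 0.864), an interval that leaves out changes of the size seen in *Krt8*, *Krt18* and *Krt20*. Its sign turned to −0.18 when libraries were scaled by their size only.

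**Figure D1:**
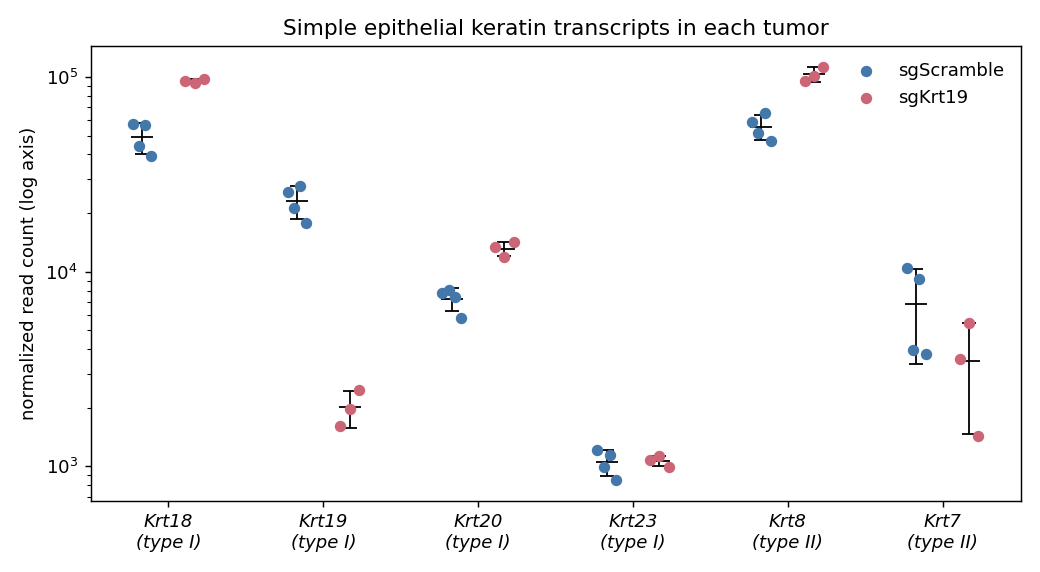
Normalized read counts (log axis) of the 6 keratins in each tumor, with 4 sgScramble (blue) and 3 sgKrt19 (red) tumors per gene and bars for the mean ± SD. Red points lie wholly above blue for *Krt18*, *Krt20* and *Krt8* and wholly below for *Krt19*, and both colors overlap for *Krt23* and *Krt7*.

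The scale on which the tumors are compared matters for the 3 keratins that rose. Scaling by library size only moved the median of all tested genes to −0.21 on the log2 scale, and the log2 fold changes of *Krt8*, *Krt18* and *Krt20* were then 0.69, 0.76 and 0.65, all called. Measured relative to the mean log2 count of the epithelial markers of the same tumor, keratins left out, the differences were 0.70 for *Krt8* (adjusted p = 0.385), 0.77 for *Krt18* (adjusted p = 0.309) and 0.66 for *Krt20* (adjusted p = 0.475), and none of the 3 was called. The SEs of these differences were 0.394 for *Krt8*, 0.395 for *Krt18* and 0.415 for *Krt20*. With the size factors they were 0.174, 0.178 and 0.137. On the scale of the epithelial markers *Krt18* still lay higher in all 3 sgKrt19 tumors than in any control, and *Krt8* and *Krt20* overlapped. *Krt19* was lower by 3.72 and *Krt7* by 1.23 (adjusted p = 0.0496), both called. The number of genes called in all was 1536 on that scale, against 7240 on the scale of the size factors.

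The epithelial markers themselves differed. Of 13 tested among 15, 6 rose and 1 fell, with a median log2 fold change of 0.47, and their summed count ran from 40073 to 46646 in sgScramble and from 58196 to 71904 in sgKrt19. The share called among all tested genes was 34.0%, with 17.9% higher and 16.0% lower. *Cldn3* had at most 8 reads in every tumor and was not tested. *Cdh1*, the adhesion molecule E-cadherin, made up most of the sum and rose from 25991 ± 1376 to 38248 ± 3824 (log2 fold change 0.55, adjusted p = 0.0101). *Lsr*, of tricellular junctions, rose from 3641 ± 631 to 6470 ± 629 (log2 fold change 0.84, adjusted p = 0.00205). The part of a larger share of epithelial cells in the rise of *Krt8*, *Krt18* and *Krt20* was not tested.

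Chains of the 2 types pair in filaments, so levels were next compared between genes, as normalized reads per kb of the longest annotated coding transcript. In sgScramble tumors the order of mean levels per kb was *Krt18* (34280 ± 6174), *Krt8* (28342 ± 4227), *Krt19* (14628 ± 2787), *Krt20* (3767 ± 523), *Krt7* (1673 ± 848) and *Krt23* (672 ± 104). Neighbors in that order did not overlap in range except *Krt18* and *Krt8*, which nevertheless stood in the same order in all 4 tumors. In sgKrt19 tumors the order of levels per kb was *Krt18* (66520 ± 1704), *Krt8* (52817 ± 4486), *Krt20* (6809 ± 573), *Krt19* (1277 ± 276), *Krt7* (848 ± 490) and *Krt23* (683 ± 43.1). *Krt19* thus went from the third to the fourth place, and its range overlapped that of *Krt7*, as that of *Krt7* did that of *Krt23*. The order depends on length: before division by length *Krt8* was above *Krt18* in all 7 tumors, and the ranges of *Krt20* and *Krt7* overlapped in sgScramble. The level of *Krt7* per kb also depends on its annotation, as its coding transcript is given as 4094 bases against 1437 to 1958 for the others.

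*Krt19* held 27.4% ± 0.84 of the summed type I level per kb in sgScramble tumors, within 26.7% to 28.5% in all 4, and 1.69% ± 0.33 in sgKrt19 tumors. The share of *Krt18* went from 64.2% ± 1.09 to 88.4% ± 0.55. That of *Krt20* was 7.14% ± 0.96 and 9.03% ± 0.49 and overlapped between groups, and that of *Krt23* was 1.26% ± 0.050 and 0.909% ± 0.086, lower in every sgKrt19 tumor. The fall of *Krt19* was smaller than the rise of *Krt18* on this scale, with differences of −13351 and 32240 reads per kb. The summed type I level per kb was higher in every sgKrt19 tumor, at 75288 ± 2400 against 53346 ± 9342, and so was the type II sum, at 53665 ± 4170 against 30015 ± 4973. Among the type II members *Krt8* held 94.6% ± 2.08 in sgScramble and 98.4% ± 0.95 in sgKrt19.

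The ratio of type I to type II levels per kb was 1.87, 1.81, 1.72 and 1.71 in sgScramble tumors and 1.51, 1.37 and 1.34 in sgKrt19 tumors. It was lower in every sgKrt19 tumor, with means of 1.78 ± 0.077 and 1.41 ± 0.088. With *Krt19* left out of the type I sum the ratio was 1.29 ± 0.064 and 1.38 ± 0.091, and the groups overlapped. The log2 ratio of the counts of *Krt18* to *Krt8* was −0.18 ± 0.093 in sgScramble and −0.11 ± 0.099 in sgKrt19, also overlapping. The difference in the *Krt18* to *Krt8* ratio was smaller than its spread between tumors. These ratios are descriptions of sums over chosen genes and have no test.

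**Figure D2:**
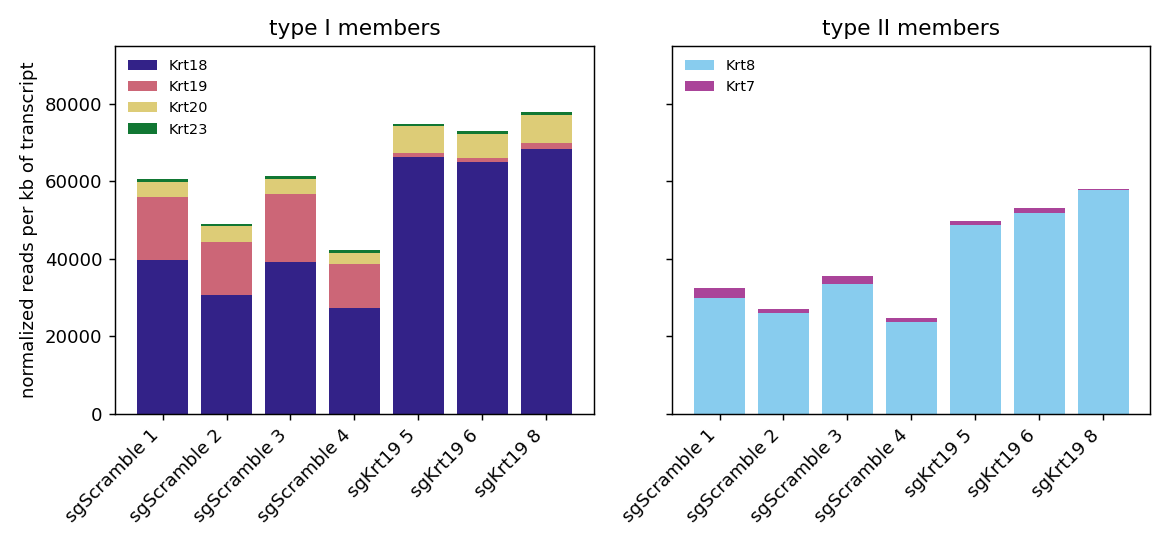
Normalized reads per kb of coding transcript for the type I members (left) and type II members (right), stacked for each of the 7 tumors. The *Krt19* band is 11320 to 17524 reads per kb in the 4 sgScramble tumors and 1019 to 1567 in the 3 sgKrt19 tumors, while the *Krt18* and *Krt8* bands are taller in every sgKrt19 tumor.

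The uneven *Krt7* was set beside other epithelial genes, chosen after their values were seen. *Epcam*, an epithelial adhesion molecule, had counts of 1273, 376, 1588 and 402 in sgScramble tumors and of 1247, 1169 and 322 in sgKrt19 tumors. *St14*, the membrane protease matriptase, had 568, 226, 689 and 184 in sgScramble and 372, 627 and 128 in sgKrt19. Like *Krt7*, both were high in sgScramble 1 and 3 and low in sgScramble 2 and 4 and in sgKrt19 8. They parted in sgKrt19 5, where *Krt7* was below all 4 controls and *Epcam* was near its level in sgScramble 1. Neither was called between the groups (adjusted p = 0.943 for *Epcam* and 0.804 for *St14*). *Cdh1* did not share that pattern, with 24121 to 27150 in sgScramble and 34406 to 42053 in sgKrt19. Within groups, that is, over deviations of log2 counts from the group mean in the 7 tumors, *Krt7* had a Pearson r of 0.986 with *St14* and placed *St14* at rank 4 of 15227 genes with a mean of at least 100. *Krt23* had an r of 0.835 with *Krt7* on that measure. With so many genes and 7 tumors high values of r arise in number, and no p is given.

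**Figure D3:**
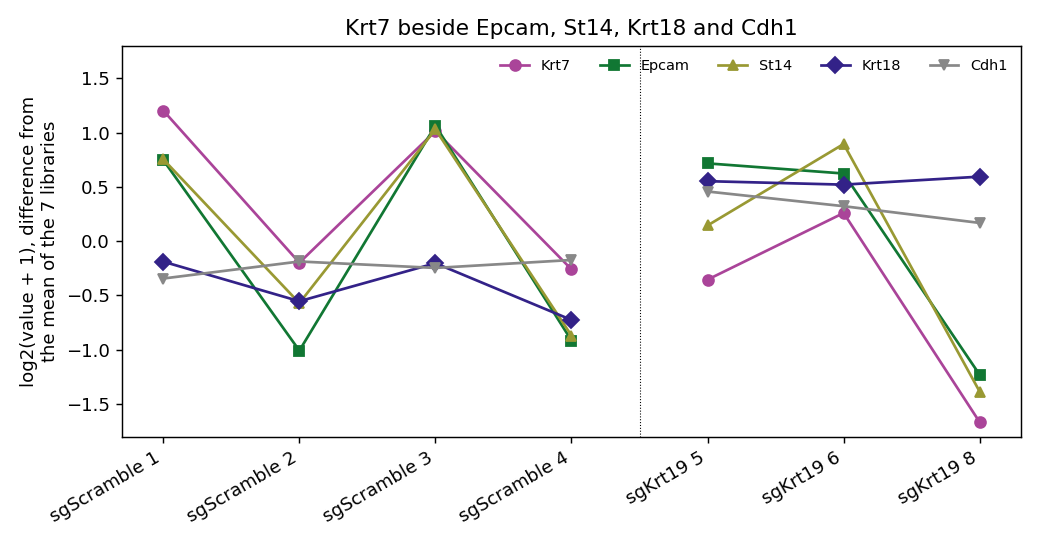
The log2(value + 1) of *Krt7*, *Epcam*, *St14*, *Krt18* and *Cdh1* in each tumor as the difference from the mean of the 7 tumors, with lines only to guide the eye and a dotted line between the groups. *Krt7*, *Epcam* and *St14* are low in sgScramble 2, sgScramble 4 and sgKrt19 8, but in sgKrt19 5 *Krt7* is below its mean and *Epcam* and *St14* are above theirs, whereas *Krt18* and *Cdh1* are above their mean in all 3 sgKrt19 tumors.

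The genes most like *Krt19* over all 7 tumors, by Pearson r of log2 counts, were *Msrb2* (r = 0.996), *Ndel1* (0.995), *Rhoj* (0.994), *Rmdn2* (0.993) and *Sel1l3* (0.992), all lower in sgKrt19. Those most like *Krt18* were *Sdcbp2* and *Dnph1* (both 0.999), *Med8* (0.998), *Nt5c3* (0.997) and *Fam118b* (0.996), all higher. Among the 15227 genes ranked for *Krt18*, *Krt8* was at rank 58 (r = 0.987), *Krt20* at 559 (0.958), *Krt23* at 6636 (0.40), *Krt7* at 9494 (−0.37) and *Krt19* at 13534 (−0.89). Among those ranked for *Krt19* the order was *Krt7* at 4273 (0.58), *Krt23* at 7174 (−0.029), *Krt8* at 14070, *Krt18* at 14090 and *Krt20* at 14250 (−0.90). The difference between the groups makes up much of each r. Within groups *Krt19* varied in the same direction as *Krt8* (r = 0.943) and *Krt18* (r = 0.769), the opposite of the sign across groups.

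Few other keratins were measurable. Of 24 other type I keratin genes 23 were in the table and 7 were tested, of which 1 rose, and of 25 other type II genes 24 were in the table and 4 were tested, of which 1 rose and 1 fell. Of all tested genes 34.0% were called. *Krt15*, a type I keratin of basal cells, had 22.3, 12.8, 19.2 and 15.8 in sgScramble and 25.4, 55.0 and 51.5 in sgKrt19 (log2 fold change 1.23, adjusted p = 0.0192). It lay just above the controls in sgKrt19 5 and was not called without sgKrt19 8 (adjusted p = 0.069), without sgKrt19 6 or without sgScramble 2. *Krt80*, a type II keratin of differentiating epithelia, went from 256 ± 19.5 to 373 ± 58.2 (log2 fold change 0.53, adjusted p = 0.0225). It was not called by library size only (adjusted p = 0.195) or without sgScramble 3, sgKrt19 6 or sgKrt19 8. *Krt79*, a type II keratin of hair follicle openings and sebaceous ducts, went from 119 ± 19.9 to 70.1 ± 21.8 (log2 fold change −0.79, adjusted p = 0.0344) and was not called without sgScramble 1, sgScramble 2, sgKrt19 5 or sgKrt19 8.

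The basal pair of stratified epithelia was scarce. *Krt5* did not exceed 14.7 in any tumor, and *Krt14*, its type I partner, was 43.5 ± 20.3 in sgScramble and 45.4 ± 25.3 in sgKrt19. Of 12 skin keratinocyte markers 6 were tested, with 1 higher (*Ivl*) and 1 lower (*Lor*), and a median log2 fold change of 0.0037. Their sum ran from 411 to 781 in sgScramble and from 825 to 910 in sgKrt19. *Ivl* gave the most to it in sgKrt19, and went from 169 ± 80.3 to 467 ± 113. Of 9 hair follicle and sebaceous markers 5 were tested, with 1 higher (*Mgst1*) and 3 lower, and their sum, to which *Mgst1* gave the most in sgKrt19, ran from 3312 to 4064 and from 5168 to 7571. For both lists the share called among all tested genes was 17.9% higher and 16.0% lower. The inner root sheath keratins *Krt71*, *Krt25*, *Krt27* and *Krt73* were at 0 in all sgScramble tumors, at 90.3, 78.8, 34.7 and 20.0 in sgKrt19 8, and at most 4.62 in the other 2 sgKrt19 tumors. Without sgKrt19 8 the 6 members had the same calls and the same directions, while the log2 fold change of *Krt7* went from −1.03 to −0.49. The part of hair follicle in the keratin results was not tested.

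The guide acts at *Krt19*, so its neighbors were examined as well. Within 250 kb of *Krt19* lie 28 genes of the table, of which 11 were tested, with 3 higher and 2 lower, or 45.5% called against 34.0% of all tested genes, and a median log2 fold change of 0.36. Within 1 Mb the balance was the other way, with 6 of 47 tested genes higher, *Krt20* among them, and 16 lower. This was 46.8% called, with a median of −0.15. The tested genes that lie 260 to 328 kb away were all called lower. They were *P3h4* (log2 fold change −1.61), *Fkbp10* (−1.17), *Nt5c3b* (−0.80), *Klhl10* (−1.22), *Klhl11* (−1.31) and *Acly* (−0.84). The 2 that fell within 250 kb were *Hap1* (−0.95) and *Jup* (−0.38). The cause was not tested. Within 100 kb only *Krt15* (4.88 kb away) and the processed pseudogene *Gm11598* (94.6 kb away, log2 fold change 0.63, adjusted p = 0.0317) were called. *Krt13*, 19.2 kb from *Krt19*, was 132 ± 29.3 in sgScramble and 169 ± 37.9 in sgKrt19 (log2 fold change 0.36, adjusted p = 0.24). *Krt36*, *Krt14* and *Krt16* were not called either. Without sgScramble 2 only 1 gene within 250 kb was called higher and 1 lower.

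Of the other intermediate filament genes 10 of 16 were tested, and 2 rose and 1 fell, a share near the 34.0% called among all tested genes. *Vim*, the filament of mesenchymal cells and of many cultured carcinoma cells, had 63945 ± 3704 and 81373 ± 5386 (log2 fold change 0.35, adjusted p = 0.0972), with all sgKrt19 tumors above the controls. *Des*, the filament of muscle, had 93.8, 59.3, 753 and 94.6 in sgScramble and 6602, 4419 and 5481 in sgKrt19 (log2 fold change 5.25, adjusted p = 0.000485), and like the summed muscle markers it was highest among controls in sgScramble 3. *Bfsp1*, a filament gene known from the lens, rose (log2 fold change 1.23, adjusted p = 0.0023). *Nes*, the neural progenitor filament nestin, was called lower (log2 fold change −0.52, adjusted p = 0.04), but its groups overlapped and the call was lost without each of sgScramble 1, sgScramble 3, sgScramble 4, sgKrt19 6 and sgKrt19 8. The lamins *Lmna*, *Lmnb1* and *Lmnb2* had log2 fold changes of −0.0031, 0.14 and 0.027, and none was called.

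Keratin filaments are anchored at desmosomes and hemidesmosomes. Of 17 such attachment genes 16 were tested, and 4 rose and 4 fell, with a median log2 fold change of −0.19, where 34.0% of all tested genes were called. On the scale of the epithelial markers 1 was called higher and 2 lower. The 4 that rose were *Perp*, a desmosomal membrane protein (1320 ± 348 to 3795 ± 234, log2 fold change 1.56, adjusted p = 0.000274), the cadherin *Dsg2* (494 ± 72.2 to 1250 ± 353, log2 fold change 1.31, adjusted p = 0.000744), *Dsp*, the desmoplakin that binds keratin filaments to desmosomes (2533 ± 437 to 6207 ± 478, log2 fold change 1.31, adjusted p = 0.000185), and *Eppk1*, the keratin-binding epiplakin (log2 fold change 1.01). The 4 that fell were the cadherin *Dsc2* (186 ± 80.2 to 59.7 ± 30.3, log2 fold change −1.65, adjusted p = 0.00868), *Pkp1* (−1.27), *Evpl* (−0.58) and *Jup*, the plakoglobin gene, which itself lies 220 kb from *Krt19* (−0.38). *Dsg2* and *Dsc2*, desmosomal cadherins both, thus moved in opposite directions. The call of *Jup* was lost without sgScramble 2, sgScramble 3, sgKrt19 5 or sgKrt19 8. Without sgScramble 1, 7 of these genes were called lower, and without sgKrt19 5 or sgKrt19 8 the number was 2.

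A further list held genes whose products bind, fold or phosphorylate keratins, such as 14-3-3 proteins, and *Krtcap2* and *Krtcap3*, which are named for keratinocytes and are not known to act on keratins. Of its 10 genes, all tested, 1 rose and 1 fell, where 34.0% of all tested genes were called. The 1 that rose was *Krtcap3*, which went from 376 ± 85.4 to 1104 ± 162 (log2 fold change 1.57, adjusted p = 0.000292). *Tchp*, trichoplein, a keratin filament binding protein of the centrosome, fell from 435 ± 41.2 to 297 ± 51.8 (log2 fold change −0.56, adjusted p = 0.0198), a call that was lost without sgScramble 2, sgScramble 4 or sgKrt19 5.

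Of 21 epithelial transcription and splicing factors 20 were tested, and 5 rose and 3 fell, with a median log2 fold change of −0.058, where 17.9% of all tested genes rose and 16.0% fell. On the scale of the epithelial markers 3 were called higher and 1 lower. *Cdx2*, the homeobox factor of intestinal epithelium, rose from 132 ± 16.6 to 455 ± 71.4 (log2 fold change 1.77, adjusted p = 9.44e-05). *Ehf* and *Elf3*, epithelial ETS factors, rose from 2179 ± 145 to 6554 ± 1214 (log2 fold change 1.57, adjusted p = 5.41e-05) and from 4221 ± 1014 to 11243 ± 374 (log2 fold change 1.45, adjusted p = 0.000348). *Klf4* (1.43) and *Klf5* (0.37), Krüppel-like factors of epithelia, were the others that rose. *Foxa3*, a forkhead factor of gut endoderm, fell from 414 ± 87.4 to 55.8 ± 14.8 (log2 fold change −2.88, adjusted p = 4.63e-05) and *Gata6* was also among the 3 that fell (−0.41). The pancreatic factors *Pdx1* and *Sox9* had log2 fold changes of −0.11 and −0.075 and were not called.

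**Figure D4:**
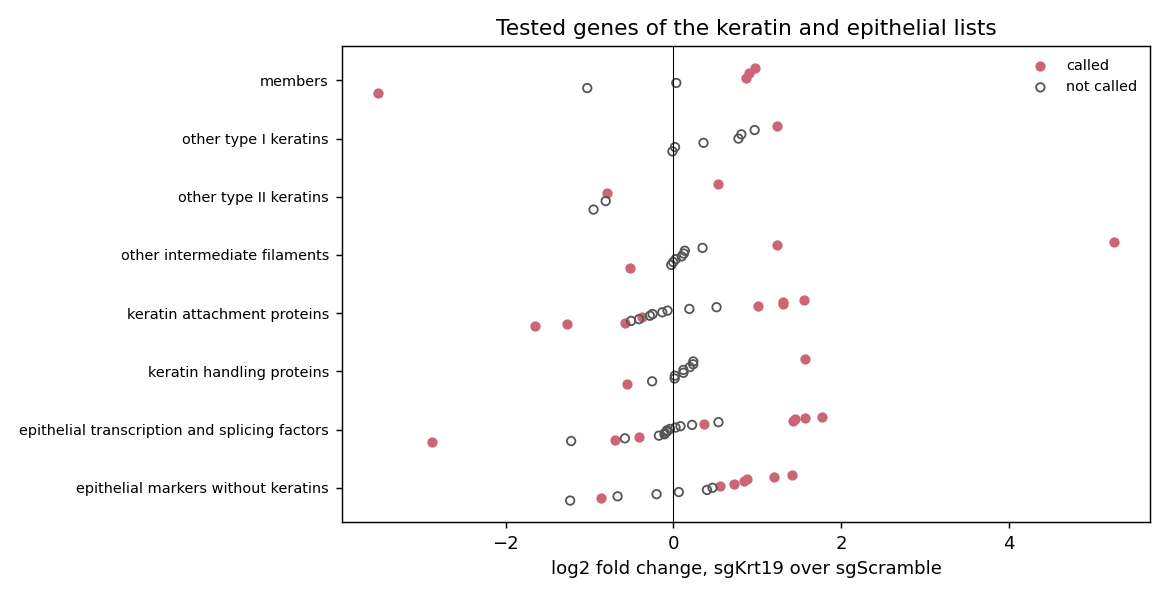
Log2 fold change, sgKrt19 over sgScramble, of each tested gene in the keratin and epithelial lists, with filled points for genes called by limma at an adjusted p under 0.05 and open points for the rest. Called genes lie on both sides of 0 in the attachment, handling and factor lists, and among the members 3 filled points lie near 0.9 and *Krt19* at −3.52.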

How the data were processed

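Bulk RNA-seq of 7 tumors was used. The study extracted RNA, made libraries with a stranded total RNA kit (4 µg of RNA, 12 PCR cycles) and sequenced reads of 76 bp, while the labels name polyA RNA. The authors deposited 1 table of a signal, reads per gene divided by a size factor for each library. Dividing by the step of each column gave whole reads for 100% of values (tolerance 0.1 read), at 40781199 to 44972100 reads per library. The genome build is mm10 per the submitters' processing notes. The aligner, counting program and use of strand are not given in the sources used here. Of the gene identifiers 37167 of 38026 matched GENCODE M21 (GRCm38). The floor of 3 reads equals a value of 2.74 to 3.47 and covers counting error only.

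Genes that reached a value of 10 in 3 or more libraries were fitted as log2(value + 1) by limma 3.58.1 (R 4.3.3) with the group as the only term, eBayes with a trend and Benjamini-Hochberg adjustment over 21322 genes, with a threshold of 0.05. A fold change on that scale understates changes of low genes. The code was tested on simulated data. Alternatives were pseudocounts of 0.5 and 10, no filter, library size only, TMM factors, centring on epithelial markers, edgeR 4.0.16 and DESeq2 1.42.0 on the recovered reads, leaving out each library, and other lengths, members and windows for the ratios and neighbors. The length of all annotated exons was added after the data were seen.

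The members and lists were chosen with earlier results of these data known. Genes named from a keratin or epithelial factor list were up to 4 of its called genes with the largest absolute log2 fold change and a mean of at least 10 in a group. Members, the 5 genes most like *Krt19* and *Krt18*, keratins near *Krt19* and called genes within 100 kb of it were also named. Others, such as *Epcam*, *St14*, *Cdh1*, *Lsr*, *Krt8-ps*, the inner root sheath keratins and genes listed to complete a count, were named after their values were seen. So were the neighbors of *Krt19* named beyond 100 kb. The study describes individual tumors from cells placed in a single flank, while the labels name no animals, and p-values measure the spread between these tumors. Replicate libraries differed by a chi-square of 18.6 to 80.1 per degree of freedom over genes. Some items are not reported here. The labels give no batch, so a batch that follows the groups cannot be told apart from them.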

Additional observations from a re-analysis of the deposited data

Results flagged for a closer look

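In a search of 56 sets of 4 sgScramble values, 3 had a tumor farther from the rest than Dixon's limit, or 5.36%, where chance gives about 1 in 20. *Des* was 753 in sgScramble 3 and 59.3 to 94.6 in the other controls, and the muscle markers of that tumor were also the highest among controls. The share of *Krt23* in the type I level per kb was lowest in sgScramble 3, at 1.19% against 1.28% to 1.29% in the others. The ratio of *Krt18* to *Krt8* per kb was highest in sgScramble 1, at 1.33 against 1.15 to 1.18, close to the 1.36 of sgKrt19 5.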

How the results depend on the processing

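No paired analysis was run. A figure caption of the study calls the control and edited cells paired, but the labels do not match single sgScramble tumors with single sgKrt19 tumors. *Krt19* was called lower under every alternative run, and *Krt8*, *Krt18* and *Krt20* were called higher under every one except centring on epithelial markers, which left 0 members higher and 2 lower, with *Krt8* at 0.70, *Krt18* at 0.77, *Krt20* at 0.66 and *Krt7* at −1.23. With that centring the SEs of *Krt8*, *Krt18* and *Krt20* were 0.394, 0.395 and 0.415, larger than in the main fit. *Krt23* was of the opposite sign with library size only (−0.18), with epithelial centring (−0.17), without sgScramble 4 (−0.062) and without sgKrt19 6 (−0.0090). The cause was not tested. On the recovered reads edgeR called 7188 genes and DESeq2 7971, against 7240 by limma.

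Without 1 library at a time, log2 fold changes ran from −3.68 to −3.37 for *Krt19*, 0.83 to 0.99 for *Krt8*, 0.87 to 1.05 for *Krt18*, 0.76 to 0.93 for *Krt20*, −1.45 to −0.49 for *Krt7* and −0.062 to 0.11 for *Krt23*. The number of other keratins called was 0 to 2 higher and 0 to 2 lower, of attachment genes 4 higher and 2 to 7 lower, of handling genes 0 to 1 lower, of other intermediate filaments 0 to 1 lower, and of neighbors of *Krt19* 1 to 4 higher and 1 to 2 lower.

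Epithelial centring left 0 other keratins higher and 0 lower, 1 attachment gene higher and 2 lower, 0 handling genes lower, 3 factors higher and 1 lower, and 1 other filament higher and 0 lower. Without a filter 5 other keratins were called higher. With library size only 1 other keratin was called higher and 2 handling genes lower. Within 1 Mb of *Krt19*, 6 of 47 tested genes were higher and 16 lower. The log2 difference in type I to type II ratio was −0.34, and −0.42 with only *Krt8*, *Krt18* and *Krt19*. At this depth 12 of 24 type II keratins beside the members had at most 3 reads in every tumor.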
